A study of Mus musculus with 12 samples.

Results

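The microRNAs (miRNAs) miR-21, miR-22, miR-143 and miR-145 were followed in mouse embryonic fibroblasts (MEFs) through their array names mmu-miR-21, mmu-miR-22, mmu-miR-143 and mmu-miR-145. They were 4 of the 611 mouse miRNAs on the array. 3 of the 4 were among the 256 mouse miRNAs that entered the tests, and miR-145 was not. A miRNA entered if, in any group, both arrays gave a detection call, which the scanner software makes for a probe whose signal is over 3 times its error. The 6 groups of 2 arrays were XBP1 knockout (KO) and wild type (WT) MEFs of the C57BL/6 background, each either untreated or exposed for 12 h or 24 h to tunicamycin at 2 ug/mL. Each pair of arrays came from independent experiments, per the design text. The labels do not say how the KO cells were made, or from how many embryos or clones. XBP1 itself is not measured by a miRNA array, so the genotype labels were not checked. The stated aim was to find miRNAs whose change after 12 h depends on XBP1.

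XBP1 activates genes that relieve stress of the endoplasmic reticulum. Tunicamycin causes such stress, since it stops sugar chains from being added to new proteins there. A miRNA is cut from a hairpin precursor, loaded into an Argonaute protein, and directs it to messenger RNAs that pair with its seed, the bases near its 5′ end. miR-21 is abundant in fibroblasts and many tumours and is known to repress Pdcd4. miR-22 is best known from heart and skeletal muscle and from blood cancers. miR-143 and miR-145 are made from a shared precursor transcript and are known from smooth muscle and other mesenchymal cells.

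The sequences of miR-21 and miR-22 are shown because these miRNAs carry the strongest signals and differ in seed. They come from RefSeq, on build GRCm38.p6, which the array files do not name. The array names carry no arm, and the match of mmu-miR-21 to miR-21a-5p and of mmu-miR-22 to miR-22-3p rests on the current names of the dominant arms. Capitals mark the seed, bases 2 to 8 from the 5′ end. The opposite arm of each hairpin, written with a star on the array, is listed because it was measured too.
miR-21 (miR-21a-5p): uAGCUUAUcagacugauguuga
miR-21* (miR-21a-3p): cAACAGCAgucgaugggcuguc
miR-22 (miR-22-3p): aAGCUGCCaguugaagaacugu
miR-22* (miR-22-5p): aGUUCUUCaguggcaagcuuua

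In the hairpins below the capitals mark the mature miR-21 or miR-22, to show which arm the array signal is assigned to.
Mir21a hairpin: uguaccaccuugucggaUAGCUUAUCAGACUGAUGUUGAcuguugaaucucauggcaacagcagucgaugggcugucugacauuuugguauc
Mir22 hairpin: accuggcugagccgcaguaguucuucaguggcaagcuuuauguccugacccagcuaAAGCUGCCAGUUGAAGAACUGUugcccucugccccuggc
miR-21 lies at chr11:86584120-86584141 on the minus strand, inside the span of Vmp1, a protein-coding gene of autophagy. miR-22 lies at chr11:75463772-75463793 on the plus strand, inside its non-coding host gene Mir22hg. Among the 1679 mature mouse miRNAs in the reference table, 2 carry the miR-21 seed, miR-21 and miR-21c. Only 1, miR-22 itself, carries the miR-22 seed. miR-143 and miR-145 are named only.

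Signals differed in total between the arrays before scaling. The summed signal of the mouse miRNAs ran from 15850 to 187400, and each of the 8 tunicamycin arrays had a lower sum than each of the 4 untreated arrays. The number of mouse miRNAs detected ran from 120 to 222. All untreated arrays were on the first of 2 slides and all tunicamycin arrays on the second, so the slide and the treatment cannot be told apart. KO and WT arrays of a condition shared slides, and those of the same replicate number shared a scan. No epithelial (6 miRNAs), blood (6) or liver (1) marker was detected on any array. The summed scaled signal of 6 pluripotent-cell markers was 109.9 to 251.1 at 12 h and 28.9 to 107 at 24 h, against 8.65 to 17.0 in untreated cells. That of 4 muscle markers was 32.8 to 104 at 12 h and 3.85 to 6.79 at 24 h, against 2.17 to 10.6 in untreated cells. The detected markers in these sums were miR-294 and miR-206. Of 2 endothelial markers miR-126-3p was detected, with a sum of 0 to 26.0 in KO and 0 to 8.05 in WT cells. Of 3 neural markers miR-9 and miR-128 were detected, with a sum of 4.20 to 33.3 in KO and 0 to 8.85 in WT cells. The part of these markers in the results was not tested.

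miR-21 gave the strongest signal of all mouse miRNAs on each of the 12 arrays. Its share of the summed mouse signal in KO cells was 36.7% and 35.4% untreated, 16.8% and 17.2% at 12 h, and 31.9% and 25.5% at 24 h. In WT cells the share was 28.9% and 27.9% untreated, 14.7% and 12.4% at 12 h, and 25.8% and 19.9% at 24 h. The share was therefore lowest at 12 h in both genotypes, with no overlap with the other times. A rank or share here is one of signal, since probes differ in brightness and levels of different miRNAs cannot be set against each other in molecules.

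**Figure D1:**
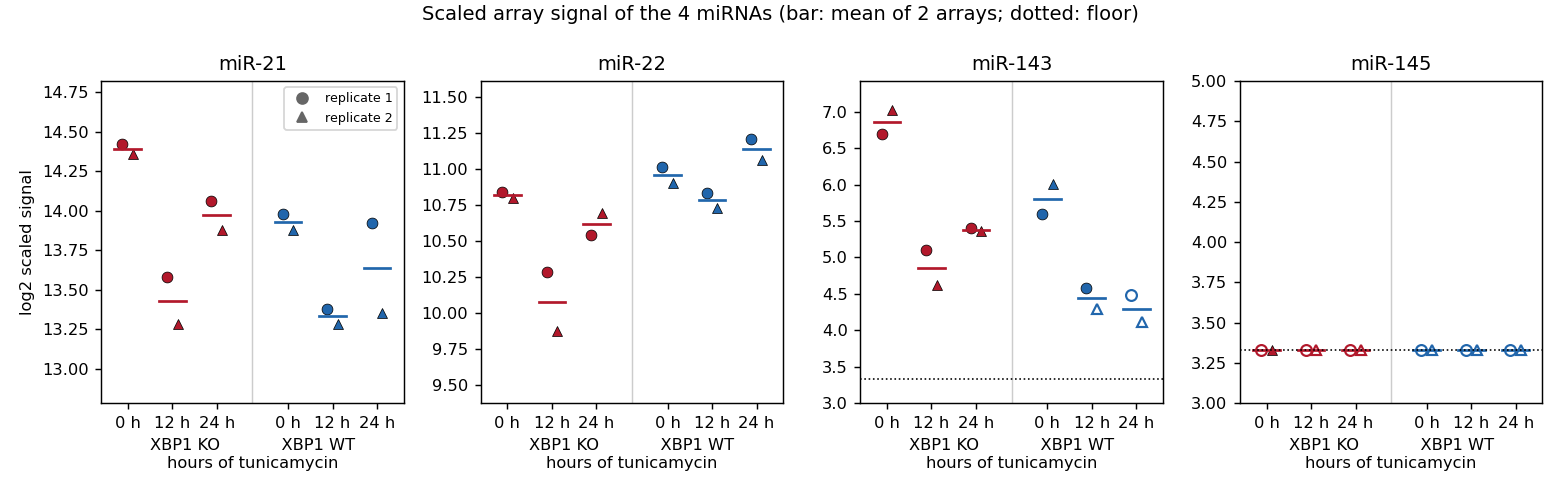
Scaled signal (log2, vertical axes, which do not start at 0) of miR-21, miR-22, miR-143 and miR-145 by hours of tunicamycin, with KO left of WT. Each point is 1 array, open where the miRNA was not detected, circles replicate 1 and triangles replicate 2, the bar is the mean of 2 arrays and the dotted line is the floor of 3.33. miR-21 and miR-143 are highest in untreated KO cells, miR-22 is lowest in KO cells at 12 h, and miR-145 is at the floor on all 12 arrays.

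Each array was scaled to the 75th percentile of the 95 mouse miRNAs detected on all arrays, and values under the floor of 3.33, the 5th percentile of detected signals, were set to it. On this scaled log2 scale, which is used for all levels and differences from here on, miR-21 in KO cells stood at 14.42 and 14.36 untreated, 13.58 and 13.28 at 12 h, and 14.06 and 13.88 at 24 h. In WT cells it stood at 13.98 and 13.88 untreated, 13.38 and 13.28 at 12 h, and 13.92 and 13.35 at 24 h. In each genotype both 12 h arrays lay below both untreated arrays. With 2 arrays per group such a separation arises easily. Its share over all tested miRNAs was not counted, for this or any other separation of arrays given here. At 24 h both KO arrays stayed below the untreated KO arrays, whereas the WT arrays overlapped the untreated ones, with replicate 1 among them and replicate 2 far below.

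Differences were tested with limma, and a call means an adjusted p under 0.05 by Benjamini-Hochberg over the 256 tested miRNAs. After 12 h of tunicamycin miR-21 fell by 0.96 in KO cells (SE 0.20, 1.95-fold lower, limma adjusted p = 0.00692). It fell by 0.60 in WT cells (SE 0.20, 1.52-fold lower, adjusted p = 0.0429). The WT call was lost in 8 of the 12 fits that left out 1 array, with adjusted p up to 0.181, while the value kept between -0.65 and -0.55. The KO call held in all 12. Both calls ended under quantile normalization, which makes the strongest signal of every array equal. In bulk samples, fewer cells of a type and less RNA per cell cannot be told apart. At 24 h the difference from untreated cells was -0.42 in KO (adjusted p = 0.304) and -0.30 in WT (adjusted p = 0.421), neither past the threshold. Both passed with normexp background correction (-0.73 and -0.79), the total gene signal (-0.61 and -0.57) and the deposited unscaled values (-2.47 and -2.43). The unscaled medians of all tested were -1.75 and -1.54. From 12 h to 24 h miR-21 rose by 0.54 in KO (adjusted p = 0.076) and 0.30 in WT cells (0.332). The KO rise passed under 8 of 14 alternatives that kept every array. Of the 20 spots for miR-21 none was saturated, and the 2 probes differed alike at 12 h, by -0.91 and -1.11 in KO cells and by -0.58 and -0.64 in WT cells.

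miR-22 was among the 10 strongest mouse signals on every array, at rank 3 to 10. In KO cells it stood at 10.84 and 10.80 untreated, 10.28 and 9.87 at 12 h, and 10.54 and 10.69 at 24 h. In WT cells it stood at 11.01 and 10.90 untreated, 10.83 and 10.73 at 12 h, and 11.21 and 11.06 at 24 h. The KO arrays dipped at 12 h, and in all 3 conditions both KO arrays lay below both WT arrays. In untreated cells the difference was only -0.14, and it changed sign under other settings given below. How many of all tested miRNAs separate in this way was not counted.

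After 12 h miR-22 fell by 0.75 in KO cells (SE 0.14, 1.68-fold lower, adjusted p = 0.00412). This call held under every alternative that gave a value for it, including all 12 fits without 1 array. In WT cells the difference at 12 h was -0.18 (SE 0.14, adjusted p = 0.337), with a 95% interval of -0.50 to 0.15. It passed in WT cells with the total signal as scale (-0.65, adjusted p = 0.000661), quantile normalization (-0.53, 0.000505), normexp correction (-0.38, 0.00992), the total gene signal (-0.25, 0.0177) and the deposited unscaled values (-1.70, 0.0167). The median of all tested miRNAs in these settings was -0.53, -0.72, 1.23, 0 and -1.22, in that order. For miR-22 the following values are again on the scale used throughout. At 24 h it was -0.21 in KO (adjusted p = 0.523) and 0.18 in WT (adjusted p = 0.495). Against the 12 h cultures, which shared a slide with the 24 h ones, miR-22 was higher at 24 h by 0.54 in KO cells (SE 0.14, adjusted p = 0.0215). In WT cells that difference was 0.36 (adjusted p = 0.119). The KO call was lost without replicate 2 at 12 h (0.33, adjusted p = 0.0886) or replicate 2 at 24 h (0.47, adjusted p = 0.0794).

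**Figure D2:**
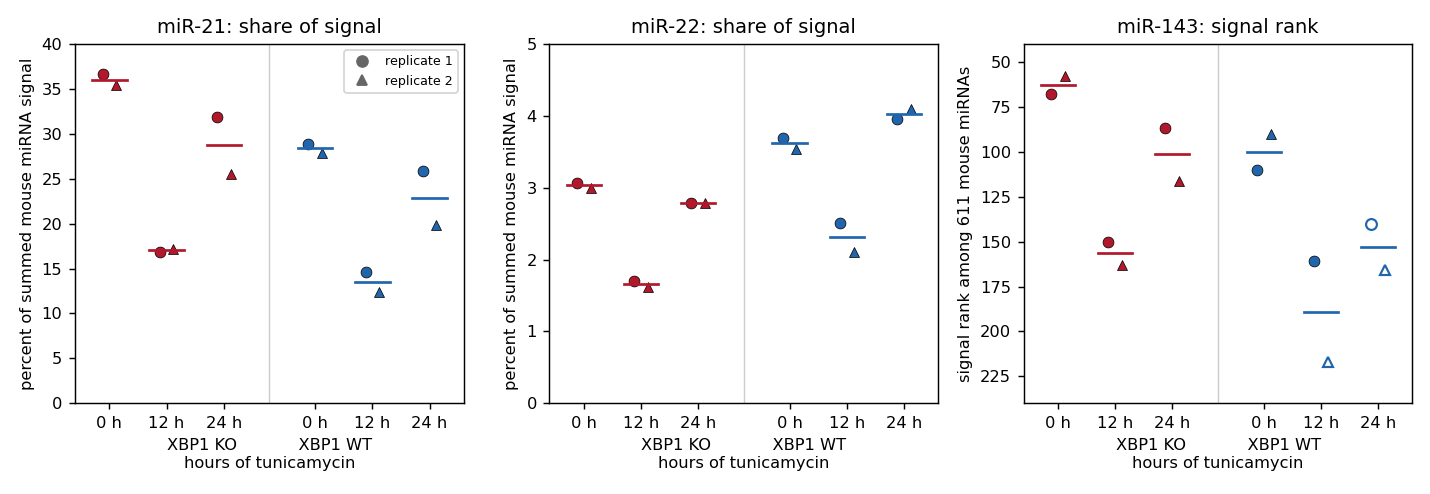
Share of the summed mouse miRNA signal (percent, from 0) of miR-21 and miR-22, and signal rank of miR-143 among 611 mouse miRNAs (inverted axis, strongest at the top), by hours of tunicamycin with KO left of WT. Points are arrays, open where not detected, and bars means of 2. The shares of miR-21 and miR-22 are lowest at 12 h in both genotypes, and miR-143 ranks from 58 in untreated KO cells to 217 in WT cells at 12 h.

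miR-143 gave a far weaker signal and was detected on 9 of the 12 arrays. In KO cells it stood at 6.69 and 7.02 untreated, 5.10 and 4.62 at 12 h, and 5.40 and 5.36 at 24 h. In WT cells it stood at 5.59 and 6.01 untreated, 4.58 and 4.30 at 12 h, and 4.49 and 4.11 at 24 h. Every tunicamycin array lay below every untreated array of its genotype, and KO lay above WT in all 3 conditions. The share of all tested miRNAs with such separations was not counted. The 3 arrays on which it was not detected were all WT, replicate 2 at 12 h and both at 24 h. Of its 20 spots on those 3 arrays, 0 were well above background.

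After 12 h miR-143 fell by 1.99 in KO cells (SE 0.28, 3.98-fold lower, adjusted p = 0.00152) and fell by 1.36 in WT cells (SE 0.28, adjusted p = 0.00612). No WT fold is given at 12 h, since 1 of the 2 arrays detected it. With the deposited unscaled values the WT difference was -0.37. Its only WT value at 12 h was that of replicate 1, which also holds the total of miR-140*, as given below. After 24 h it fell by 1.48 in KO cells (SE 0.28, 2.78-fold lower, adjusted p = 0.0138). In WT cells at 24 h, where no array detected it, it was at least 2.82-fold lower than in untreated cells (adjusted p = 0.0108). The bound sets the mean of the brighter group against, for each dim array, the highest of the floor, the lowest detected signal and the miRNA's own signal. It allows for the dim signal only, not for the spread between arrays. The direction of 3 of these 4 calls changed under normexp background correction. That correction adds an offset of 50 units to every spot, before the arrays are scaled. With it the WT differences were 0.79 at 12 h and 0.76 at 24 h. On the same setting the KO differences were -0.16 at 12 h and 0.09 at 24 h. That setting also moved the median of all tested miRNAs at 12 h to 0.89 in KO and 1.23 in WT cells. The unscaled signal of miR-143 was 5.95 to 34.4 on the tunicamycin arrays, below that offset. Without that correction the factors of scaling were 0.713 to 3.78 on tunicamycin arrays and 0.318 to 0.582 on untreated arrays. The part of the offset in the changed directions was not tested. The calls at 24 h also ended with quantile normalization (adjusted p = 0.160 in KO and 0.0838 in WT cells) and with a percentile taken over all mouse miRNAs (0.164 and 0.108).

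miR-145 had no level on these arrays that could be compared. It was at the floor on all 12, and the software called it detected on 1, replicate 2 of the untreated KO cells, where 0 of its 20 spots were well above background. Its unscaled signal was 14.7 and 15.8 on the untreated KO arrays and 1.45 and 2.28 on the untreated WT arrays, and it was negative on all 8 tunicamycin arrays. No fold change is given. Among the opposite arms, miR-21* and miR-145* were detected on no array. miR-22* was detected on both untreated KO arrays and on replicate 2 of the untreated WT cells, but stayed at the floor after scaling.

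Read together for tunicamycin at 12 h, 3 of the 3 tested miRNAs were lower in KO cells and 2 of 3, miR-21 and miR-143, in WT cells. Of all 256 tested miRNAs, 25.4% were called lower in KO cells and also 25.4% in WT cells. The members were chosen with earlier results of these data known. Fitted alone, the 95 miRNAs detected on all arrays gave 38 called lower in KO and 33 in WT cells. The median over the 110 miRNAs above the floor on every array was -0.48 in KO and -0.45 in WT cells. Over all 256 the median was 0 in KO and -0.09 in WT cells, and 61 were called higher beside 65 lower in KO cells, and 65 higher beside 65 lower in WT cells. The WT value for miR-22, at -0.18, lay above the median of the 110. At 24 h 1 of 3, miR-143, was lower in each genotype, where 10.9% of all tested miRNAs were called lower in KO and 14.8% in WT cells. For 24 h against 12 h, 1 of 3 was higher in KO cells, against 17.6% of all tested and 47 of the 95 detected on all arrays, fitted alone. None of the 3 passed in WT cells, where 21.9% of all tested were called in either direction by limma. There 1 of the 3 had an unadjusted limma p under 0.05, against 86 of all 256 tested.

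**Figure D3:**
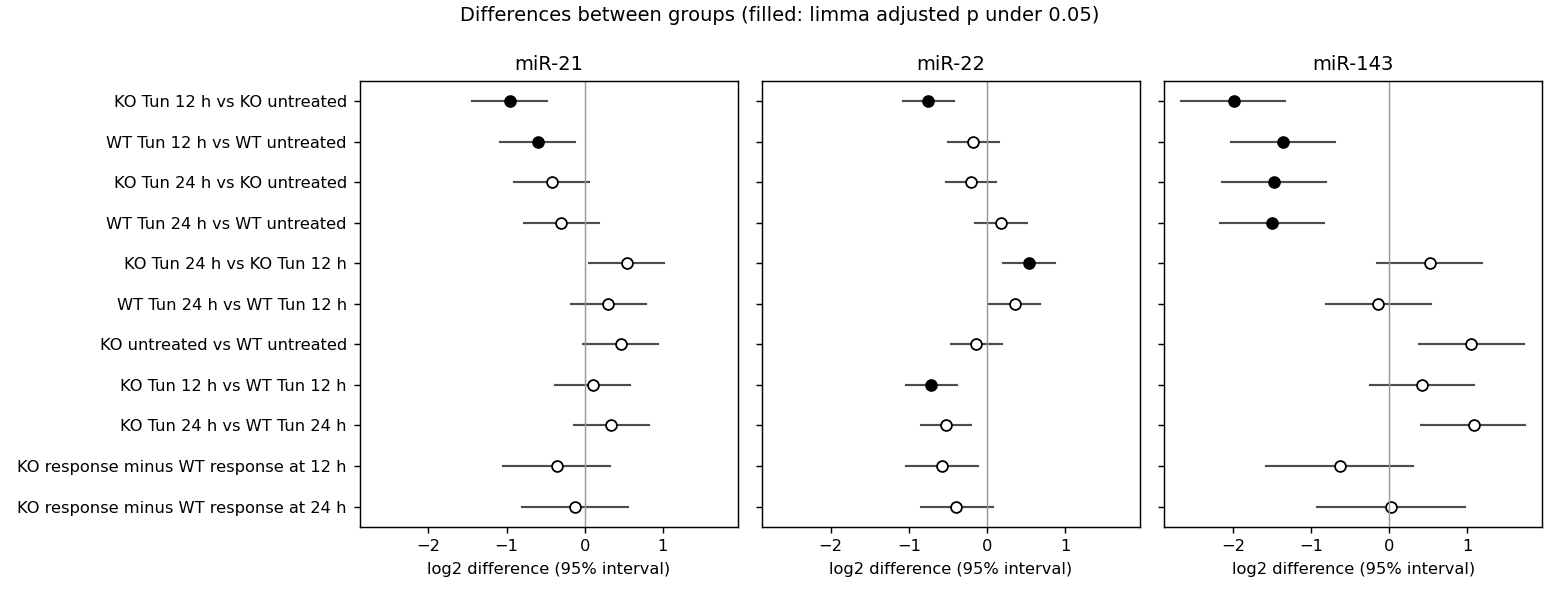
Log2 differences with 95% intervals for miR-21, miR-22 and miR-143 in 11 comparisons, each written with the group on top first. Filled points passed an adjusted p of 0.05 in limma, open points did not. The filled points are the fall at 12 h of miR-21 and miR-143 in both genotypes and of miR-22 in KO cells, the fall at 24 h of miR-143, the higher miR-22 at 24 h than at 12 h in KO cells, and the lower miR-22 in KO than in WT cells at 12 h.

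KO and WT cells were then compared within each condition, where the arrays shared slides. miR-22 was lower in KO cells at 12 h by 0.71 (log2 difference -0.71, SE 0.14, 1.63-fold lower, adjusted p = 0.0328), 1 of the 3, against 3.52% of all tested miRNAs called lower. The difference was -0.55 within the scan of replicate 1 and -0.86 within that of replicate 2. With scan as a fixed block the adjusted p was 0.0559, so the call ended there, as it did with quantile normalization (-0.11), a percentile taken over all mouse miRNAs (-0.57) and the deposited unscaled values (-0.20). It also ended in 7 of the 12 fits without 1 array, 3 of which left out an array of the 12 h groups (adjusted p 0.0559 to 0.0758). At 24 h the difference was -0.52 (adjusted p = 0.0633) and in untreated cells -0.14 (adjusted p = 0.854). The untreated value turned to 0.30 with quantile normalization, which called miR-22 higher in KO cells (SE 0.06, limma adjusted p = 0.0315). It turned to 0.26 with the percentile over all mouse miRNAs and 0.58 with the deposited unscaled values, neither past the threshold.

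miR-143 was 6.69 and 7.02 in untreated KO cells, against 5.59 and 6.01 in untreated WT cells. The difference of 1.05 (SE 0.28, 95% interval 0.38 to 1.72) had an adjusted p of 0.0541. At 24 h, where no WT array detected miR-143, the KO mean was at least 2.10-fold above the WT mean (difference 1.08, 95% interval 0.41 to 1.74, adjusted p = 0.0633). Neither passed, but with scan as a fixed block the adjusted p was 0.0300 untreated and 0.0384 at 24 h, and a random scan block gave 0.0404 and 0.0479. Within scans the untreated difference was 1.1 for replicate 1 and 1.01 for replicate 2, and at 24 h 0.91 and 1.24. At 12 h the difference was 0.42 (adjusted p = 0.603). None of the 3 passed in untreated cells, where 12.5% of all tested were called, or at 24 h, where 7.81% were called. With an unadjusted limma p under 0.05 there was 1 of the 3 untreated and 2 of the 3 at 24 h. Of all 256 tested, 54 untreated and 58 at 24 h had such a p.

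miR-21 stood 0.46 higher in untreated KO than in untreated WT cells (SE 0.20, adjusted p = 0.262), with no overlap between the groups. At 12 h the difference was 0.10 (adjusted p = 1) and at 24 h 0.34 (adjusted p = 0.455), with overlapping arrays at both times.

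The ratio of miR-21 to miR-22 on an array needs no scaling between arrays. It was 12.0 and 11.8 in untreated KO cells, 9.85 and 10.6 at 12 h, and 11.5 and 9.15 at 24 h. In WT cells it was 7.83 and 7.87 untreated, 5.85 and 5.85 at 12 h, and 6.53 and 4.87 at 24 h. Every KO array lay above every WT array, and within each genotype both untreated arrays lay above both 12 h and both 24 h arrays. A ratio shows that the 2 miRNAs changed unequally, not which of them changed, and its size reflects 2 different sets of probes. The log2 ratio of miR-143 to miR-21 was -7.73 and -7.35 in untreated KO cells, -8.48 and -8.67 at 12 h, and -8.66 and -8.53 at 24 h. Every tunicamycin KO array lay below both untreated KO arrays. In WT cells it was -8.39 and -7.87 untreated and -8.80 on replicate 1 at 12 h, the only WT tunicamycin array that detected miR-143.

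**Figure D4:**
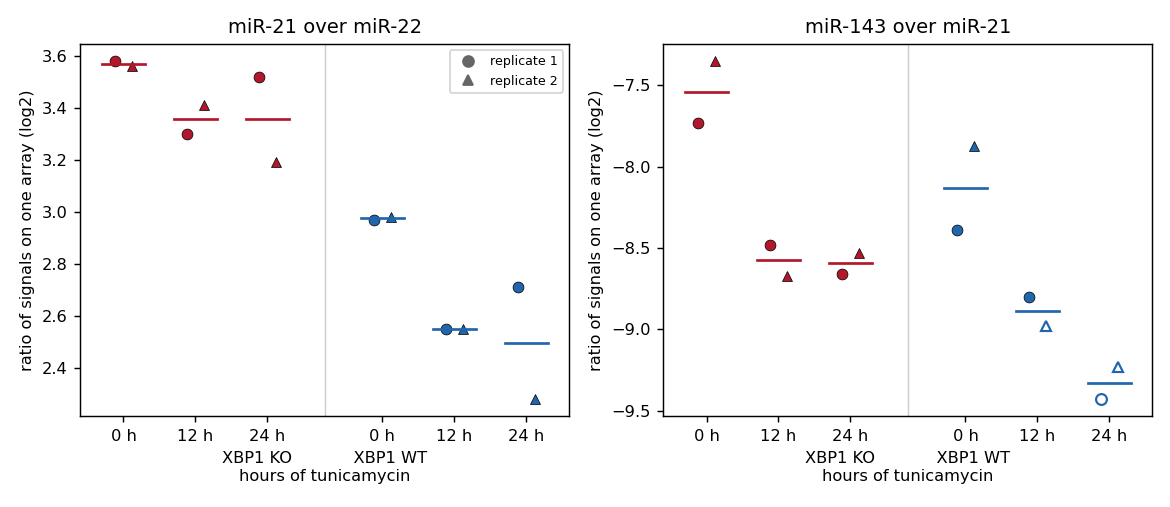
Ratio, on a log2 axis, of the signals of miR-21 over miR-22 and of miR-143 over miR-21 on each array, by hours of tunicamycin with KO left of WT. Points are arrays, open where miR-143 was not detected, and bars means of 2. All 6 KO arrays have a higher ratio of miR-21 over miR-22 than all 6 WT arrays. How many other pairs of miRNAs do so was not counted.

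The question of the design, whether the response to tunicamycin differed with XBP1, was tested as the KO response minus the WT response. At 12 h the difference was -0.36 for miR-21 (SE 0.29, 95% interval -1.04 to 0.32, adjusted p = 0.857). It was -0.57 for miR-22 (SE 0.20, interval -1.03 to -0.11, unadjusted p = 0.0226, adjusted p = 0.229). It was -0.63 for miR-143 (SE 0.40, interval -1.58 to 0.31, adjusted p = 0.724). None of the 3 passed after adjustment by limma, where 5.86% of all tested miRNAs did. An unadjusted p under 0.05 was had by 1 of the 3, against 37 of all 256 tested. At 24 h the differences were -0.12, -0.39 and 0.02, and none of the 3 passed, where 4.69% of all tested miRNAs did. An unadjusted limma p under 0.05 was had by 0 of the 3, against 30 of all 256 tested. The fall of miR-22 at 12 h, called in KO and not in WT cells, was therefore not shown to differ between the genotypes on the scale used here. Under other settings the response difference of miR-22 did pass, at 12 h with quantile normalization (-0.41, adjusted p = 0.0462) and the total gene signal (-0.68, adjusted p = 0.00206), and at 24 h with quantile normalization (-0.70, adjusted p = 0.00298). That of miR-21 passed at 12 h with normexp correction (-0.30, limma adjusted p = 0.000812).

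Of a list of 16 fibroblast and mesenchymal miRNAs that holds these 4, 15 were on the array and 14 were tested. The list was chosen with earlier results of these data known. Its counts beside those of all tested miRNAs are therefore a description only. At 12 h, 8 of the 11 others that were tested were lower in KO cells, with a median of -1.30, and 6 of 11 in WT cells, with a median of -0.70, where 25.4% of all tested were called lower in each genotype. All miRNAs above the floor had the medians of -0.48 and -0.45 given above. Of the 95 detected on all arrays, fitted alone, 38 were called lower in KO and 33 in WT cells. Of the 11, miR-152 was detected on no 12 h array. Its 12 h mean was at least 5.09-fold below the untreated mean in KO cells and at least 4.43-fold below it in WT cells. miR-125b-5p fell by 1.02 in KO cells (SE 0.15) and fell by 0.88 in WT cells (SE 0.15). miR-199a-5p fell by 1.76 in KO cells (SE 0.29) and fell by 1.17 in WT cells (SE 0.29). miR-31 did not pass at 12 h in either genotype and was higher at 24 h, by 0.73 in KO cells and by 0.66 in WT cells (SE 0.13 each). In KO cells 7 of the 11 others were higher at 24 h than at 12 h, where 17.6% of all tested were. In WT cells 1 of 11 was, where 3.12% of all tested were. Of the 95 detected on all arrays, fitted alone, 47 were called higher in KO and 4 in WT cells. The 11 hold both arms of miR-199a and of miR-214, so they are not independent. Both arms of miR-199a are among the 7 higher in KO cells and among those lower at 12 h in each genotype.

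Over the 12 arrays, the log2 levels most alike to those of miR-21 among 109 other miRNAs above the floor everywhere were those of miR-107 (Pearson r = 0.937), miR-130a (r = 0.935) and miR-103 (r = 0.927). For miR-22 they were those of let-7c (r = 0.951), miR-148a (r = 0.929) and miR-151-5p (r = 0.870). For miR-143 they were those of miR-322 (r = 0.969), miR-107 (r = 0.945) and miR-103 (r = 0.941). Between themselves, miR-21 and miR-143 had r = 0.876, miR-21 and miR-22 r = 0.325, and miR-22 and miR-143 r = 0.0748. The arrays share the scaling and the group structure, so these correlations describe the 12 arrays only.

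A measured property of the deposited values concerned miR-143 and miR-145. The authors' deposited log2 table holds the total signal per miRNA as the software wrote it, in log2. Over all mouse and viral miRNAs, that total equalled a miRNA's own detected probes plus the total of the preceding detected miRNA in name order for 681 of the 2189 detected values, to within 0.1%. For miR-145 on replicate 2 of the untreated KO cells, the total of 277.8 equalled its own 9.10 plus the 268.7 of miR-143. For miR-143 on replicate 1 of the WT cells at 12 h, the total of 52.7 equalled its own 4.82 plus the 47.9 of miR-140*. The totals of miR-21 and miR-22 equalled their own probes on all 12 arrays. With these totals in place of the spots, the WT difference of miR-143 at 12 h was 0.01 and the other 3 calls of miR-143 ended (adjusted p 0.069 to 0.301). Levels here were taken from the spots.

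**Figure D5:**
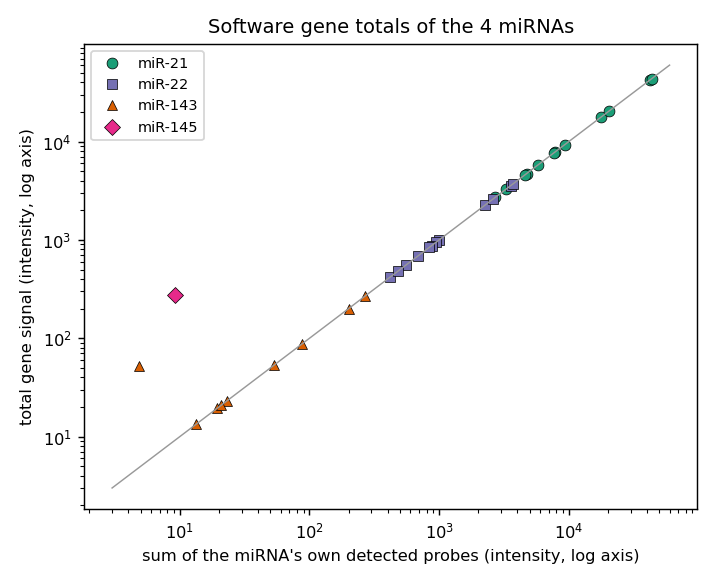
Software total gene signal against the sum of a miRNA's own detected probes (both unscaled intensity on log axes) for every array on which miR-21, miR-22, miR-143 or miR-145 was detected. The line marks equality. The points lie on it except 1 of miR-143 and the single one of miR-145, which hold the total of another miRNA.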

How the data were processed

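Arrays were 1-colour Agilent miRNA arrays (100 ng total RNA, Cy3), 2 per group. The deposited scanner files hold spot intensity from Agilent Feature Extraction 10.7.1.1, background-subtracted and not normalized between arrays, per the file headers. The authors' deposited log2 table holds, in log2, the total signal per miRNA that the software wrote (difference at most 1.15e-06). Outlier and control spots were left out, spots averaged per probe, and probes summed per miRNA. Each array was scaled to the 75th percentile of the 95 mouse miRNAs detected on all arrays. Values under the 5th percentile of detected signals (10.0, log2 3.33) were set to it. The 256 mouse miRNAs with detection on both arrays in 1 or more groups were fitted with limma 3.58.1 in R 4.3.3 (6 groups, eBayes with trend, 6 residual degrees of freedom, prior 0.981). p-values were adjusted by Benjamini-Hochberg over the 256 in each of 11 comparisons, with 0.05 as threshold. The package data.table, version 1.17.8, Python 3.11.15 and matplotlib 3.10.9 were also used. The files held no mean signal, so normexp used median signals. The script was tested on simulated data. The members and lists were chosen with earlier results of these data known. The number of arrays limits the precision. Replicate numbers pair KO and WT arrays by scan (deviations correlated at 0.880, 0.587 and 0.440 over 110 miRNAs untreated, at 12 h and at 24 h), but the labels state no pairing.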

Additional observations from a re-analysis of the deposited data

Results flagged for a closer look

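The deposited total gene signal, which the levels above do not use and which entered only as an alternative, held 2 values that a miRNA's own probes do not give. The total of miR-145 on replicate 2 of the untreated KO cells was 277.8, where its own probe signal was 9.10. The total of miR-143 on replicate 1 of the WT cells at 12 h was 52.7 (52.68), where its own was 4.82. No explanation was tested.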

How the results depend on the processing

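27 alternatives were run in all, counting the 12 fits that each leave out 1 array. Only the KO fall of miR-22 at 12 h was called under each of those that gave it a value, and that of miR-21 was lost only under quantile normalization. That method makes the strongest signal of every array equal, so miR-21 differs by 0 in each comparison by construction. Where the text below gives no cause, the cause was not tested.

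Normexp correction moved the median of all tested miRNAs at 12 h to 0.89 in KO and 1.23 in WT cells. Under it miR-143 gave 0.79 for WT at 12 h, 0.76 for WT at 24 h and 0.09 for KO at 24 h. KO against WT it gave -0.57 at 12 h and -0.29 at 24 h, and KO minus WT response at 24 h it gave -0.67. For that response miR-21 gave 0.06, and miR-22 gave -0.19 for WT at 24 h. The members called were 2 of 3 each for 24 h against untreated in KO and in WT. They were also 2 for KO 24 h against 12 h and for KO against WT at 12 h. Of the 256 tested, 188, 191, 43 and 5 were called there, in that order. In WT cells at 24 h miR-21 was called lower (-0.79) and miR-143 higher (0.76). KO against WT at 12 h, miR-21 was called higher (0.23) and miR-22 lower (-0.53). There was 1 each for KO against WT untreated and at 24 h and for the response difference at 12 h. Of the 256, 15, 4 and 6 were called there.

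The scalings also moved values. WT 24 h against 12 h, miR-143 gave 0.61 with quantile normalization, 0.55 with the 75th percentile over all mouse miRNAs and 0.31 with the total signal. KO against WT untreated, miR-22 gave 0.30 with quantile normalization and 0.26 with that percentile, which gave 0.01 for its KO 24 h difference. Members called under quantile normalization numbered 0 for KO against WT at 12 h and 2 for KO 24 h against 12 h. Of the 256 tested, 7 and 134 were called there. Members called numbered 1 each for WT 24 h against 12 h, KO against WT untreated and at 24 h, and the response differences at 12 h and 24 h. Of the 256, 104, 21, 14, 14 and 10 were called there, in that order. KO against WT, both calls were of miR-22, higher in KO cells untreated (0.30) and lower at 24 h (-0.40). Under the percentile over all miRNAs, members called numbered 0 for KO and for WT at 24 h and for KO against WT at 12 h. They numbered 3 for KO 24 h against 12 h and 1 for WT 24 h against 12 h. Of the 256 tested, 16, 16, 4, 139 and 93 were called there, in that order. Under the total signal they numbered 2 each for 24 h against 12 h in KO and in WT and for KO against WT at 24 h.

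With the total gene signal, miR-143 gave 0.01 for WT at 12 h, -1.19 for KO against WT at 12 h and -0.16 for the response difference at 24 h. In the 0.01 and the -1.19, the WT value of replicate 1 at 12 h holds the total of miR-140*. miR-21 gave -0.07 for KO against WT at 12 h and miR-22 gave -0.09 for WT at 24 h. Members called were 2 each for KO at 24 h and for KO 24 h against 12 h. There was 1 each for KO against WT at 24 h and the response difference at 12 h. Of the 256 tested, 59, 80, 19 and 26 were called there, in that order. When the software's probe totals were summed over a miRNA's own probes instead, an alternative chosen after seeing the data, no call of a member changed. With the deposited unscaled log2 values miR-143 gave -1.59 for KO against WT at 12 h, and miR-21 gave -0.30 for WT 24 h against 12 h. For WT cells at 12 h the -1.59 rests on that same value of replicate 1. miR-22 gave -1.95 for WT at 24 h, -0.25 for WT 24 h against 12 h, 0.58 for KO against WT untreated and 0.28 at 24 h. Members called were 3 for KO and 2 for WT at 24 h, where 88 of 170 and 63 of 153 tested were called. They were 0 for KO 24 h against 12 h and for KO against WT at 12 h, where 0 of all tested were called.

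Testing only miRNAs detected on all arrays left miR-143 out. Members called were 0 at 24 h in KO and in WT, 1 for WT at 12 h and 2 for KO 24 h against 12 h. Of the 95 tested, 15, 17, 40 and 57 were called there, in that order. With the brightest probe only, miR-143 gave 0.07 for WT 24 h against 12 h and -0.23 for the response difference at 24 h. Members called were 2 for KO 24 h against 12 h. There was 1 each for WT 24 h against 12 h and for KO against WT untreated and at 24 h. Of the 256 tested, 94, 65, 31 and 26 were called there, in that order. Without a trend, and with scan as a random block (correlation 0.0665), 1 was called KO against WT untreated and 1 at 24 h. Of the 256, 34 and 24 were called without a trend and 35 and 27 with the random block. With scan as a fixed block KO against WT gave 1 each untreated and at 24 h and 0 at 12 h. KO 24 h against 12 h gave 2. Of the 256, 35, 25, 14 and 87 were called there, in that order.

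With the replicate block, KO 24 h against 12 h gave 2 members called (miR-21 limma adjusted p = 0.0351), against 96 of the 256 tested. No other call of a member changed. Deviations of same-numbered untreated and 24 h arrays of a genotype correlated at -0.447 in KO and -0.521 in WT. A crossed pairing of those arrays, chosen after seeing the data, gave 1 member called in each genotype. Of the 256 tested, 34 were called in KO and 47 in WT cells.

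Leaving out 1 array gave 3 members called in every fit for KO at 12 h and 0 for both response differences. It gave 0 to 2 for WT at 12 h and for KO 24 h against 12 h, and 0 to 1 for each of the other comparisons. Response differences at 24 h ran from -0.41 to 0.16 for miR-21 and from -0.19 to 0.23 for miR-143. KO against WT at 12 h ran from -0.05 to 0.25 for miR-21, and WT 24 h against 12 h ran from -0.33 to 0.05 for miR-143. The miR-143 call was lost for WT at 12 h without WT untreated replicate 2 (adjusted p = 0.0519). For WT at 24 h it was lost without that array (0.0935) or WT 24 h replicate 2 (0.0525), and for KO at 24 h without either untreated KO array (0.0577 and 0.116). Where a fit leaves 1 array in a group, that array is assumed to vary like the other groups.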
